A study of Homo sapiens with 2 samples.

Results

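Transcripts of human chromosomes 13 and 18 were examined for A-to-G mismatches in HEK-293T cells that carried an ABA-responsive RNA editor. All positions of both chromosomes listed by the authors on the plus and minus strands were taken. The 44 positions at which G made up at least 35% of A and G reads in either library were left out, 23 on chromosome 13 and 21 on chromosome 18. This left 158503 positions, 84771 on chromosome 13 and 73732 on chromosome 18, of 4725846 on chromosomes 1 to 22 and X, or 3.35%. The positions were selected on their measured G share, and both chromosomes were chosen by their A-to-G ratios, which were known. Every A-to-G value below is therefore a description, and no test was made of it.

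HEK-293T is an established line from human embryonic kidney. The cells expressed a CIRTS-hADAR biosensor, and messenger RNA was sequenced from cells without ABA and from cells with ABA, 1 library each. Both groups shared the cell line and the biosensor and differed in ABA. Dose, time, transfection and the promoter of the biosensor are not given in the sources used here. With 1 library a condition the difference has no replicate check, and differences between conditions and between libraries cannot be told apart.

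CIRTS systems are RNA-targeting effectors assembled from human protein parts, here joined to the deaminase of a human ADAR, an enzyme that acts on adenosines in RNA. ADARs convert adenosine to inosine in double-stranded RNA, and sequencing reads inosine as G. ADARs favour an A or U on the 5′ side of the edited base and disfavour a G there. Chromosomes 13 and 18 are known as gene-poor autosomes, which few transcripts come from for their length.

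The label was set beside a RefSeq gene table of the GRCh38.p14 assembly, from which gene counts alone were used. Chromosome 18 had 270 protein-coding genes and chromosome 13 had 338, the second and the third lowest counts after the 239 of chromosome 21, against a median of 848 over 23 chromosomes. In these libraries chromosome 13 had 885 listed A positions per Mb of its listed span and chromosome 18 had 946, the lowest densities of the 23, with chromosome 4 next at 970. Both chromosomes were thus low on both measures. The first does not account for length, and the second depends on reads in these libraries. Neither is a count of genes per Mb, so the label itself was not tested.

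A genome of the files' build, hg19, was not used here. Spacings of listed A positions were therefore matched to RefSeq gene-start windows of both chromosomes, each from 250 bases before to 50 bases after an annotated start. Of 1613 windows searched, 6 were placed, and of 65 miRNA hairpins 0 were placed. The placed windows belonged to LOC124903219 on chromosome 13 and to DTNA, INO80C, SMAD7, RPL17-C18orf32 and ACAA2 on chromosome 18. DTNA encodes dystrobrevin alpha of the dystrophin-associated complex, INO80C a subunit of the INO80 chromatin remodeller and ACAA2 a mitochondrial thiolase of fatty acid oxidation. Only 4 A positions in these windows had a G read, 1 each, and they are shown as examples of what a single G read looks like. Such a read cannot be told here from a sequencing error. The first DTNA position and those of INO80C and ACAA2 lay before the annotated start, and the second DTNA position lay after it. Whether those before the start belong to a transcript of the named gene was not tested. In the order listed below, the base on the 5′ side was C, T, A and G, and ADARs disfavour the last. Letters are 5′ to 3′ on the transcript strand, from RefSeq of GRCh38.p14, and the capital is the A at which G was read. Coordinates are those of the files (hg19).
DTNA, chr18:32398146-32398174, plus strand: gttcctactgccacAgtgagagtatgatg
DTNA, chr18:32398245-32398273, plus strand: ccggtggttctcatAgcaaccagcaccaa
INO80C, chr18:33077736-33077764, minus strand: cagcccttcccacaAtggcagcagcggcg
ACAA2, chr18:47340113-47340141, minus strand: atctaaaaatgaggAtgtgaggaaagagt

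The first DTNA position had 0 G among 11 reads without ABA and 1 among 14 with ABA. The second DTNA position had 0 of 19 without ABA and 1 of 17 with ABA. The INO80C position had 1 of 13 without ABA and 0 of 8 with ABA. The ACAA2 position had 0 of 10 and 1 of 9 in that order. G was thus read with ABA alone at 3 of these positions and without ABA alone at the other. Over whole windows, the matched positions just before the annotated start of SMAD7, an inhibitor of TGF-beta signalling, had 0 G among 85 reads in the library without ABA and 0 among 147 with ABA. Those of RPL17-C18orf32, a readthrough locus with a ribosomal protein gene, had 0 of 653 and 0 of 583. A count of 0 allows up to 3 reads, so neither window could show a change of the size found over the chromosomes.

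Of the 158503 positions, 136960 were listed without ABA, 108029 with ABA and 86486 in both. The median depth was 9 reads in each library, against 10 on the other nuclear chromosomes. At least 20 reads were present at 9.03% of listed positions without ABA and 8.70% with ABA, against 12.6% and 13.8% elsewhere. A plus G reads with ABA came to 0.777 times those without ABA on chromosome 13 and 0.782 times on chromosome 18, the lowest of the 23 chromosomes, against 0.888 over the others. The part of depth and of the lower read total in the results was not tested.

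The A-to-G rate was higher with ABA on both chromosomes. Without ABA, 536 of 1529751 A plus G reads were G, a rate of 0.0350% (0.0321 to 0.0381). With ABA, 639 of 1192512 were G, a rate of 0.0536% (0.0495 to 0.0579). The ratio of the ABA rate to the rate without ABA was 1.53 (1.36 to 1.72), or 0.0185 percentage points more. The 95% intervals are exact and include no error but that of counting. They are too narrow where 1 read covers several positions, and PCR copies of a read are not independent molecules.

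Chromosome 13 went from 265 G reads, 0.0337%, to 328 G reads, 0.0537%, a ratio of 1.59 (1.35 to 1.88). Chromosome 18 went from 271 G reads, 0.0364%, to 311 G reads, 0.0535%, a ratio of 1.47 (1.24 to 1.73). The intervals of both ratios overlapped, and both rates with ABA were nearly equal. The other nuclear chromosomes together went from 0.0388% to 0.0783%, a ratio of 2.02 (1.99 to 2.06). The members thus lay below the others by less without ABA (0.0350% against 0.0388%) than with ABA (0.0536% against 0.0783%).

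**Figure D1:**
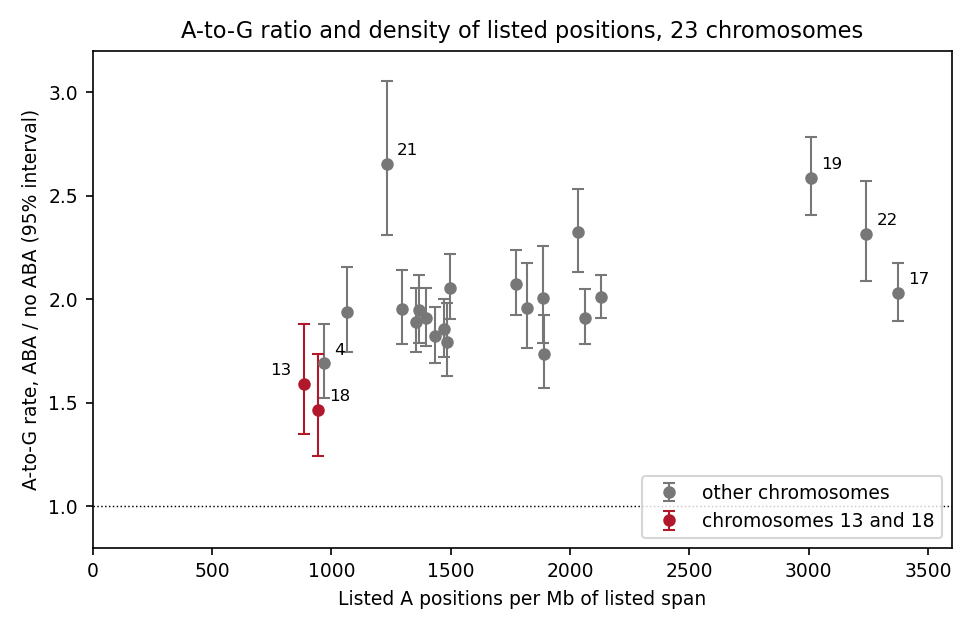
The ratio of the A-to-G rate with ABA to that without ABA is plotted for 23 chromosomes against listed A positions per Mb of listed span, with exact 95% intervals. Chromosomes 13 (1.59) and 18 (1.47), in red, lie at the lower left, next to chromosome 4 (1.69), and chromosome 21 (2.65) lies high at a low density.

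Among 23 chromosomes, chromosome 18 had the lowest ratio and chromosome 13 the second lowest, followed by chromosome 4 at 1.69 (1.52 to 1.88), whose interval overlapped both. The top of the order was held by chromosome 21 at 2.65 and chromosome 19 at 2.59. Chromosome 21, with the highest ratio, also had the fewest protein-coding genes. Genes per Mb were not counted, and the part of gene content in the ratios was not tested. Over the 23 chromosomes the ratio correlated with listed positions per Mb at Pearson r = 0.53 and Spearman rho = 0.56. With the read ratio of both libraries r was 0.84 and rho was 0.81. With the mean number of neighbouring listed A positions r was -0.71 and rho was -0.73, and with mean depth without ABA 0.70 and 0.63. All points share the same 2 libraries, and these values are given as a description.

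Mismatches to C or T served as background, and over both chromosomes and strands together their ratios lay closer to 1. A-to-C reads numbered 147 without ABA and 115 with ABA, a rate of 0.00961% against 0.00965%, with a ratio of 1.004 (0.779 to 1.29). A-to-T reads numbered 119 and 104, 0.00778% against 0.00872%, with a ratio of 1.12 (0.854 to 1.47). Many of these reads sat at a few positions, such as chr13:30086225 on the minus strand, where C made up 19 of 19 reads without ABA and 14 of 14 in the ABA library. On chromosome 13, 6 positions held 53 of 92 A-to-T reads without ABA and 53 of 80 with ABA. With positions of a C or T share of at least 35% left out, in the way G was treated, the ratios were 1.25 (0.910 to 1.72) for A-to-C and 1.01 (0.670 to 1.52) for A-to-T, an alternative chosen after seeing the data. The corresponding values over the other chromosomes were 1.21 (1.15 to 1.27) and 1.07 (1.01 to 1.14), both intervals above 1. With no position left out for C or T, the others had 1.17 (1.12 to 1.22) for A-to-C and 1.01 (0.961 to 1.07) for A-to-T. The A-to-C value differed by chromosome, with 45 and 35 reads and a ratio of 1.001 (0.625 to 1.59) on chromosome 13, and 38 and 46 reads and a ratio of 1.55 (0.986 to 2.45) on chromosome 18. On chromosome 18 it was thus no lower than the A-to-G ratio of 1.47. The A-to-T ratio on the plus strand of chromosome 13, with no position left out for T, was 1.55 (0.904 to 2.67) from 28 and 32 reads, beside an A-to-G ratio of 1.52 there. The A-to-T interval overlapped that of the A-to-G ratio, and the A-to-C interval did once those positions were left out.

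The rate with ABA was the higher on both strands. On the plus strand the rate went from 0.0326% (231 G reads) to 0.0485% (261 G reads), a ratio of 1.49 (1.24 to 1.79). On the minus strand it went from 0.0372% (305 G reads) to 0.0577% (378 G reads), a ratio of 1.55 (1.33 to 1.81). The strands overlapped within counting error. By chromosome the ratios were 1.52 (1.17 to 1.97) on the plus and 1.64 (1.32 to 2.04) on the minus strand of chromosome 13. They were 1.46 (1.13 to 1.89) and 1.47 (1.18 to 1.84) on chromosome 18. The other chromosomes had 2.07 on the plus and 1.97 on the minus strand.

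The rate of both libraries climbed with depth, and the ratio did not climb with it. At positions of 6 to 9 reads, the rate was 0.0252% without ABA and 0.0430% with ABA, from 134 and 186 G reads, a ratio of 1.71 (1.36 to 2.15). At 10 to 19 reads the rate was 0.0332% and 0.0486%, a ratio of 1.47 (1.22 to 1.77). At 20 to 49 reads it was 0.0466% and 0.0757%, a ratio of 1.63 (1.30 to 2.04). These intervals overlapped one another. The deepest class, with 50 reads or more, differed in direction: 0.151% without ABA against 0.138% with ABA, from 38 and 30 G reads, a ratio of 0.914 (0.547 to 1.51). Its interval held 1 and overlapped those of the shallower classes. Over the other chromosomes the 4 classes had ratios of 2.09, 2.02, 1.86 and 1.86, with 0.121% and 0.226% in the deepest. In all of these each library was classed by its own depth. The members' positions listed in both libraries were also classed by mean depth. Their ratios were then 2.28 (1.67 to 3.13), 1.33 (1.09 to 1.62), 1.41 (1.11 to 1.79) and 0.904 (0.539 to 1.50). There the interval at 6 to 9 reads lay apart from those at 10 to 19 and at 50 or more.

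The deep class rests on few places. Its 383 positions with 50 reads in either library fell in 15 bins of 1 Mb, and 168 lay in the bin from 45 to 46 Mb of chromosome 13. Within that bin the deepest class had 23 G reads without ABA and 20 with ABA, a ratio of 0.998 (0.520 to 1.90). Without the bin, both chromosomes had 15 and 10 G reads at such depth, a ratio of 0.779 (0.313 to 1.85). The value below 1 was therefore present outside that bin too, with wider limits. On chromosome 13 alone the class of 20 to 49 reads moved from 1.88 (1.33 to 2.67) to 2.23 (1.54 to 3.28) when the bin was left out.

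**Figure D2:**
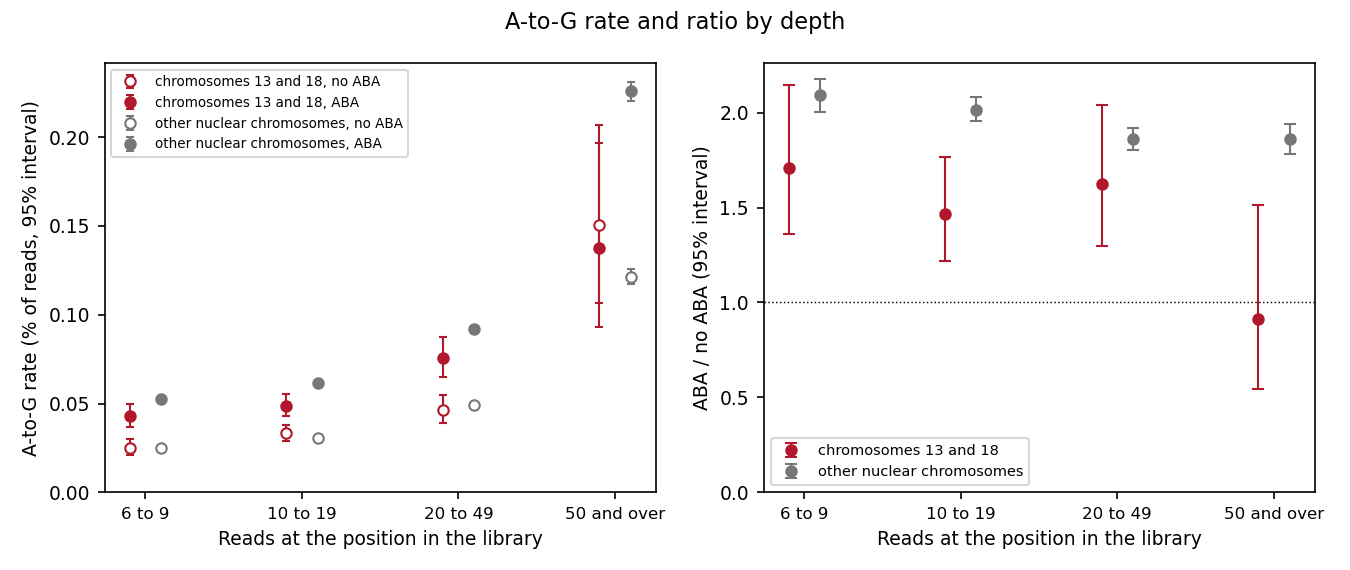
A-to-G rate in percent of reads (first panel) and the ratio with ABA to without ABA (second panel) are shown for 4 classes of depth, with exact 95% intervals. Rates rise with depth in both libraries, and chromosomes 13 and 18 have ratios of 1.71, 1.47, 1.63 and 0.914 against 2.09, 2.02, 1.86 and 1.86 elsewhere.

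The density of listed A positions was counted for each position as other listed A of the same strand within 50 nt on either side. Its median was 21 on the members and 20 elsewhere. With 0 to 9 neighbours the rate went from 0.0354% to 0.0614% (29 and 34 G reads), a ratio of 1.73 (1.02 to 2.95). With 10 to 19 neighbours it went from 0.0352% to 0.0576%, a ratio of 1.64 (1.30 to 2.05), and with 20 to 29 from 0.0344% to 0.0552%, a ratio of 1.60 (1.34 to 1.93). With 30 or more neighbours it went from 0.0357% to 0.0466%, a ratio of 1.31 (1.04 to 1.64). The point values fell from class to class while the rate without ABA lay between 0.0344% and 0.0357%, and all 4 intervals overlapped. The others had 2.63, 2.37, 1.95 and 1.56, and there the intervals of the last 3 classes lay apart. The order did not hold on each chromosome: chromosome 18 had 0.995 (0.400 to 2.37) in the sparsest class, from 15 and 10 G reads, and chromosome 13 had 2.51 (1.25 to 5.25) there, from 14 and 24. With neighbours counted within 250 nt and classes 5 times as wide, the densest class of the members turned to 0.948 (0.494 to 1.79).

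**Figure D3:**
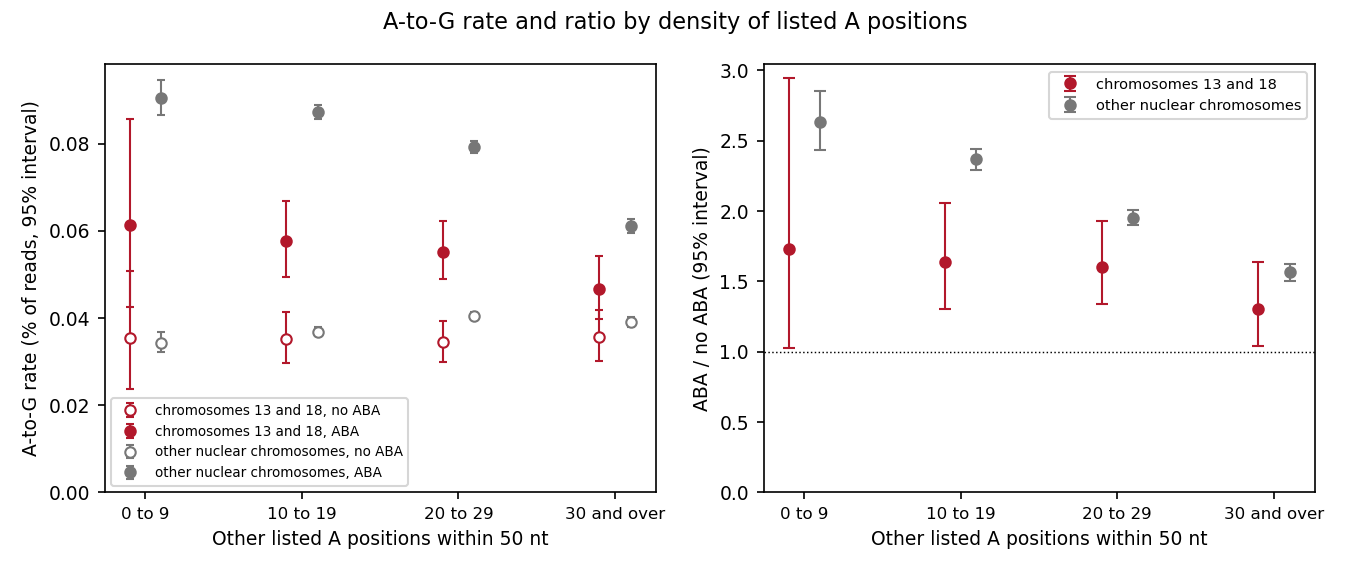
A-to-G rate in percent of reads (first panel) and the ratio with ABA to without ABA (second panel) are shown by the number of other listed A positions within 50 nt, with exact 95% intervals. Point ratios on chromosomes 13 and 18 fall from 1.73 to 1.31 and those elsewhere from 2.63 to 1.56.

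Density was also taken per 1-Mb bin. Of the positions on chromosomes 13 and 18, 51.9% lay in bins with 2000 or more listed positions, against 75.9% elsewhere. In bins with fewer than 500 listed positions the members' ratio was 1.77 (1.16 to 2.74), from 39 and 57 G reads. From 500 to under 1000 it was 1.37 (0.951 to 1.96), from 1000 to under 2000 it was 1.67 (1.32 to 2.11), and with 2000 or more 1.47 (1.25 to 1.72). No order by bin density was seen among the members. The others had 1.84, 1.86, 1.88 and 2.06.

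The members' mix of depths and densities was put onto the other chromosomes by weighting. With depth classes weighted to the members' reads, the others had rates of 0.0339% and 0.0672%, a ratio of 1.98. Density classes alone gave 1.97. Both together gave 0.0338% and 0.0644%, a ratio of 1.91, beside 0.0350%, 0.0536% and 1.53 on the members. These values are a description of both sets, and the part of depth and density in the members' ratio was not tested.

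The base next to each A was read from the list itself, since a listed neighbour is an A. An unlisted neighbour is another base or an A with too few reads. Positions with a listed A on the 5′ side alone went from 0.0423% to 0.0747% (136 and 185 G reads), a ratio of 1.77 (1.41 to 2.22). Those with no listed A beside them went from 0.0328% to 0.0536%, a ratio of 1.63 (1.37 to 1.95). Positions with an A on the 3′ side alone had 121 and 107 G reads, 0.0370% and 0.0423%, a ratio of 1.14 (0.873 to 1.50). With an A on both sides it was 1.37 (0.923 to 2.02). The other chromosomes had 2.52 with A on the 5′ side, 2.10 with none, 1.50 with both and 1.37 with A on the 3′ side. Intervals of the members' 5′ and 3′ classes overlapped between 1.41 and 1.50, and the order differed between the chromosomes. On chromosome 13 the ratio was 2.05 (1.47 to 2.87) with A on the 5′ side, 1.65 with none, 1.32 with A on the 3′ side and 1.03 (0.589 to 1.77) with both. On chromosome 18 it was 1.54 (1.12 to 2.12), 1.61, 0.989 (0.667 to 1.46) and 1.90 (1.05 to 3.50) in that order of classes, so that A on both sides was highest there, from 21 and 30 G reads.

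**Figure D4:**
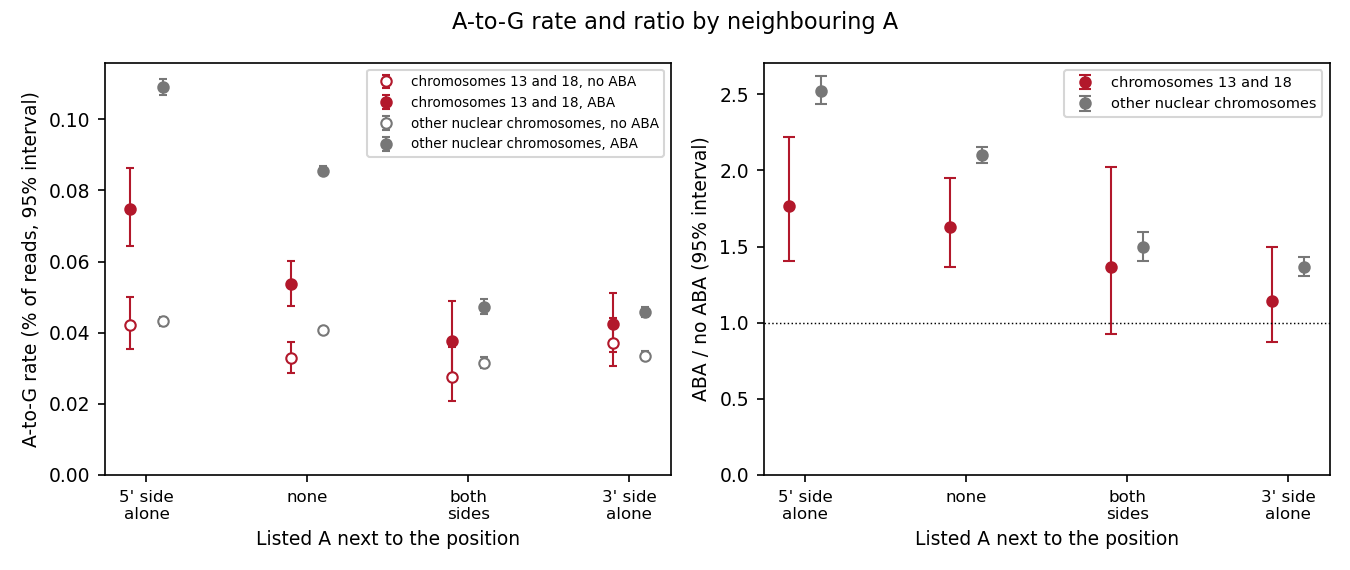
A-to-G rate in percent of reads (first panel) and the ratio with ABA to without ABA (second panel) are shown by whether a listed A lies next to the position, with exact 95% intervals. The rate with ABA is highest where an A lies on the 5′ side alone, 0.0747% on chromosomes 13 and 18 and 0.109% elsewhere.

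G reads were scattered. Without ABA, G was read at 508 listed positions (0.371%), and with ABA at 591 (0.547%), against 0.455% and 0.891% elsewhere. Positions with a single G read held 91.8% of the members' G reads without ABA and 87.3% with ABA, against 90.0% and 82.1% elsewhere. No member position held more than 5 in a library, against at most 21 and 28 elsewhere, where far more positions were listed. Of the 86486 positions listed in both libraries, 368 had G without ABA alone, 489 with ABA alone and 22 in both. Elsewhere these counts were 13836, 25834 and 1561 of 2767328. G positions lay within 50 nt of another in 21.3% of cases without ABA and 22.2% with ABA, against 28.5% and 34.3% elsewhere. Of 140 bins with listed positions, a G read fell in 95 without ABA and in 97 with ABA, against 1866 and 1917 of 2443 elsewhere.

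By 1-Mb bin, 68 of the 140 had at least 5000 A plus G reads in each library, 39 on chromosome 13 and 29 on chromosome 18. The rate was higher with ABA in 51 (75%, against 86.2% of bins over all nuclear chromosomes), lower in 15 and at 0 in both libraries in 2. A ratio of 2 or more was found in 21 of 68 bins, or 30.9%, against a background of 43.4%. A ratio of 0.5 or less was found in 3, against 2.44% in the background. All 3 of these rested on 1 G read with ABA against 2 to 4 without. Bins with 0 G reads in 1 library were set against a floor of 3 reads and passed neither limit. The exact interval lay wholly above 1 in 7 bins, or 10.3%, against a background of 29%, and wholly below 1 in 0, against 0.0626%. Such shares, here and for the blocks below, depend on the reads in each feature, which were not matched to the background.

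On chromosome 13 the bin with most reads, 77 to 78 Mb, had 15 G among 53616 reads without ABA and 19 among 46833 with ABA, a ratio of 1.45 (0.698 to 3.07). The bin from 45 to 46 Mb had the most G reads, 44 of 40107 and 33 of 32680, with rates of 0.110% and 0.101% and a ratio of 0.920 (0.568 to 1.48). The bin from 98 to 99 Mb had 11 and 9 G reads, a ratio of 1.06 (0.387 to 2.81). These 3 bins, which hold the most reads of the chromosome, showed no difference beyond counting error. The next 2 by reads had intervals above 1, but they were among 68 bins looked at and no test was made. The bin from 73 to 74 Mb had 5 and 16 G reads, a ratio of 3.83 (1.34 to 13.4). That from 79 to 80 Mb had 6 and 15, a ratio of 2.92 (1.07 to 9.18). Of its 15 G reads with ABA, 3 lay at the single position chr13:79945107. Past a ratio of 2 with 10 G reads were also 25 to 26 Mb (5 and 12, ratio 3.15) and 30 to 31 Mb (4 and 11, ratio 3.77). Of the G reads in the last bin, 1 without ABA and 8 with ABA lay within chr13:30083565-30088708 on the minus strand.

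On chromosome 18 the bin with most reads, 33 to 34 Mb, had 26 G among 68303 reads without ABA and 23 among 55958 with ABA, a ratio of 1.08 (0.589 to 1.97). The bin from 29 to 30 Mb had 26 and 33, a ratio of 1.59 (0.924 to 2.77), and that from 32 to 33 Mb had 16 and 19, a ratio of 1.64 (0.801 to 3.42). The bin from 19 to 20 Mb had 13 and 12, a ratio of 1.21, and the first Mb of the chromosome had 11 and 7, a ratio of 0.924. None of these 5 bins differed beyond counting error. Bins with a ratio past 2 and at least 10 G reads were 43 to 44 Mb (11 and 27, ratio 2.40, 1.15 to 5.37), 47 to 48 Mb (5 and 17, ratio 3.61, 1.28 to 12.5) and 21 to 22 Mb (14 and 22, ratio 2.03, 0.994 to 4.30). The 43 to 44 Mb bin had 0.0522% without ABA and 0.125% with ABA.

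**Figure D5:**
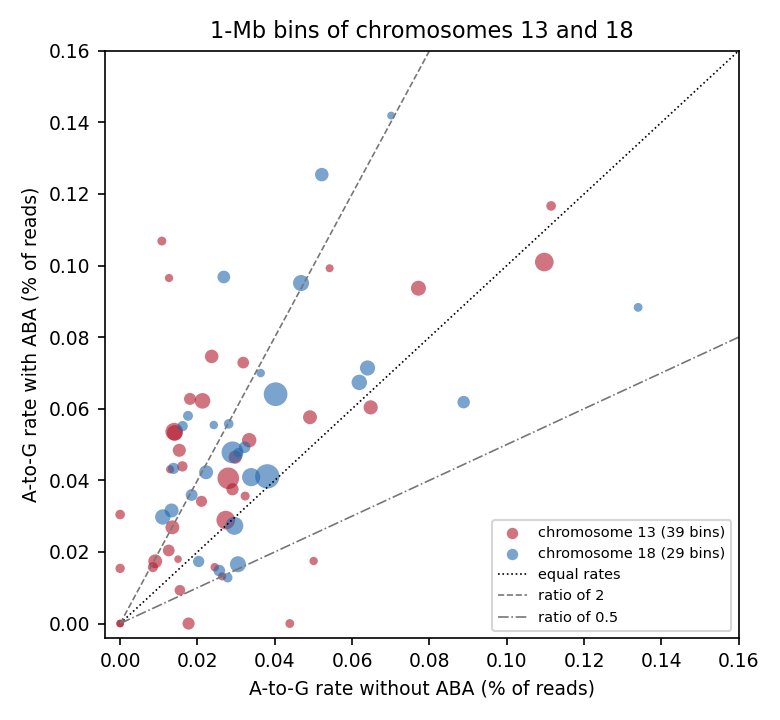
Each point is a 1-Mb bin with at least 5000 reads in each library, placed by its A-to-G rate without ABA and with ABA in percent of reads, with its area following its reads. Of 68 bins, 51 lie above the line of equal rates. The 21 bins counted at a ratio of 2 or more and the 3 at 0.5 or less leave out the points on either axis, where a library had 0 G reads against at most 4 in the other.

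Blocks joined listed positions of 1 strand no more than 100 nt apart, and 1303 had at least 200 reads in each library. Of these, 843 had no G read in either library, the rate was the higher with ABA in 281, and it was the lower in 179. The higher share was 21.6%, against a background of 27.9%. A ratio of 2 or more was found in 23 blocks, or 1.77%, against 3.34% in the background, and 13 of these had at most 3 G reads in either library. A ratio of 0.5 or less was found in 14, or 1.07%, against 0.78%, and 7 of these had at most 3 G reads. The interval lay wholly below 1 in 0 blocks, against 0.00884% in the background, and wholly above 1 in 1, or 0.0767%, against 0.469%. The last was chr13:30083565-30088708 on the minus strand, with 1 G of 18424 reads in the library without ABA and 8 of 13661 in the other, a ratio of 10.8 (1.45 to 479). It lies in the bin from 30 to 31 Mb named above. The same block held 22 C and 15 T reads without ABA and 15 C and 13 T reads with ABA, most of them at chr13:30086225 (19 and 14 C) and chr13:30088049 (15 and 13 T).

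The 5 blocks of each chromosome with most G reads all had ratio intervals that held equal rates. These intervals were wide, so likeness of both libraries cannot be read from them. On chromosome 13, the minus-strand block chr13:55014820-55015116 had 8 of 2631 and 10 of 2668 reads, 0.304% and 0.375%. The neighbours chr13:45914131-45914319 (8 and 9 G reads) and chr13:45911011-45911522 (7 and 8) had ratios of 1.26 and 1.29. A further block between them, chr13:45913633-45913737, went the other way, with 11 of 3633 without ABA and 3 of 3076 with ABA, a ratio of 0.322 (0.0577 to 1.22). The plus-strand block chr13:52035381-52035426 had 6 and 3 G reads. None of the 5 differed beyond counting error.

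On chromosome 18, the minus-strand block chr18:6462119-6462987 had 11 of 6580 and 7 of 6518 G reads, a ratio of 0.642 (0.211 to 1.81). The plus-strand block chr18:29125684-29127464 had 6 and 7. The minus-strand blocks chr18:23749307-23751208 and chr18:32912212-32917734 had 7 and 6 and 7 and 5. Only chr18:43669536-43669959 passed a ratio of 2 among these 5, with 3 of 3503 and 9 of 3530 G reads, 0.0856% and 0.255%, a ratio of 2.98 (0.743 to 17.1), whose interval held 1.

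Few single sites changed by much. A depth of 20 reads in each library was reached at 7062 positions. The G share with ABA was the higher at 148, the lower at 127 and equal at 6787. Such counts were not made over all nuclear chromosomes, so the split cannot be called particular to the members. A change of at least 10 percentage points was found upward at 1 site, against 0.0203% of sites over all nuclear chromosomes, and downward at 0, against 0.000836%. That site was chr13:79945107 on the minus strand, with no G among 20 reads in the first library and 3 of 28 with ABA, 10.7% (2.27 to 28.2).

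An edited site was a position with at least 20 reads, 3 G reads and a share of 10%. There were 0 among 12368 covered positions without ABA (background 0.00886%) and 3 among 9396 with ABA (background 0.0313%). With at least 10 reads in place of 20 the order of the counts turned, to 7 without ABA and 4 with ABA. No rate per covered position and no background share was taken at that depth. The 0 without ABA allow up to 2.98 per 10000, which holds the 0.908 of the other chromosomes. The 3 with ABA are 3.19 per 10000 (0.658 to 9.33), beside 3.13 on the others. Besides chr13:79945107 they were chr13:30087074 on the minus strand, with 0 of 16 reads without ABA and 3 of 24 in the other library, and chr18:57022754 on the minus strand. The last had G in both libraries, 3 of 13 reads in that without ABA and 4 of 20 in the other, and fell short of 20 reads without ABA. Position chr13:30087074 lies in the block named above for its interval and supplied 3 of its 8 G reads.

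At the limit of 35%, the lowest shares left out were at chr13:95673518 (2 of 7 reads, then 3 of 8 with ABA), chr18:23749159 (6 of 17 and 7 of 19) and chr18:77893683 (5 of 14 and 2 of 7). The highest share kept was 33.3%, at positions such as chr13:21948647, chr13:36886469 and chr13:67840988, each with 2 G of 6 reads in 1 library and no listing in the other. The 44 positions left out had 312 G among 418 reads without ABA, 74.6%, and 239 of 342 with ABA, 69.9%.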

How the data were processed

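For each library the authors deposited counts of reads with A, C, G and T at listed positions, plus strand and minus strand apart, with a single base read cutoff of 5 per the file headers. The submitters' processing notes name cutadapt, HISAT2 and hg19, without versions. The program that counted bases, its strand setting and any removal of duplicates are not given in the sources used here. Minus-strand counts were complemented. A rate is G over A plus G reads, summed. Intervals of rates are Clopper-Pearson and those of ratios exact conditional binomial, both at 95%. Those of ratios were tested on simulated counts of independent reads, at the same rate in all bins of a library. Reads that cover several positions and PCR copies were not simulated, so their effect on the intervals was not tested. A ratio with 0 reads in a library was taken against a floor of 3 reads, and 0 against 1 to 3 reads was not called.

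The members and lists were chosen with earlier results of these data known. Named were the 5 bins per chromosome with most reads, bins past a ratio of 2 with at least 10 G reads, the 5 blocks per chromosome with most G reads, sites changed by at least 10 points, edited sites and the 3 positions on each side of the 35% limit. Other features were chosen after their values were seen. Class limits, density per Mb, weighting, neighbouring bases, relations over chromosomes and the matching to RefSeq windows were added after seeing the data. A match needed at least 20 A positions at equal spacings, 8 of them above 1, at a single place, and this minimum was set after matches were seen. Alternatives to the left-out limit, depth, listing, windows, bins and blocks were run. Intervals came from scipy 1.17.1, tables from pandas 2.3.3 and numpy 2.4.6 and plots from matplotlib 3.10.9, under Python 3.11.15.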

Additional observations from a re-analysis of the deposited data

How the results depend on the processing

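All 30 alternatives to the A-to-G ratios of chromosome 13, chromosome 18 and both together had point values above 1, from 1.26 to 1.72, and 26 lay within the interval of the value reported. The other 4 were 1.33 for both chromosomes and 1.32 for chromosome 13 with the left-out positions kept, and 1.32 for both and 1.26 for chromosome 13 with at least 20 reads in each library. At that depth the interval held 1 on chromosome 13 (0.922 to 1.74) and on chromosome 18 (1.38, 0.985 to 1.95). The same settings were applied to each chromosome and to both together, so the 30 alternatives are not independent. Leaving out positions of 50 reads or more was not planned in advance. Taking G over all 4 bases could hardly move the value. At positions of 6 to 9 reads the ratio was 2.19 over positions listed in both libraries, and 2.28 by mean depth. With neighbours counted within 250 nt, the density class of 20 to 29 became 1.25, and the densest class reversed to 0.948 (0.494 to 1.79). Bins past a ratio of 2, 21 higher and 3 lower of 68, became 5 and 0 of 17 with at least 20000 reads. In bins of 5 Mb they became 8 and 0 of 29. Blocks joined over 500 nt gave 37 higher and 8 lower of 1179, in place of 23 and 14 of 1303. Sites changed by 10 points, 1 higher and 0 lower of 7062, became 18 and 12 of 37299 with at least 10 reads. At 5 points they became 15 and 4 of 7062. Edited sites, 0 without ABA and 3 with ABA, became 7 and 4 with at least 10 reads, which turned the direction of the counts. At a share of 5% they became 0 and 9. Shares over all nuclear chromosomes were not counted at these settings. The causes of these moves were not tested. No paired analysis was possible because each condition had 1 library, and for the same reason no replicate could be left out. At a median of 9 reads the share of a single site can be set within wide limits alone.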
